A study of Mus musculus with 6 samples.

Results

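The genes described here are the proteasome subunit genes, taken as those whose symbol starts with Psma, Psmb, Psmc, Psmd, Psme, Psmf or Psmg followed by a digit, without the immunoproteasome genes Psmb8, Psmb9 and Psmb10. The rule found 47 of the 19124 gene symbols in the table, and all 47 passed the filter on low counts. They comprise 8 alpha genes, 7 beta genes, 6 ATPases and 3 other subunits of the base, 8 lid subunits, 3 chaperones of the regulatory particle, 4 chaperones of the core, 5 subunits of alternative activators and the inhibitor Psmf1. The remaining 2 matched by name only. Psmc3ip encodes a recombination cofactor and Psme3ip1 a protein that binds the activator Psme3.

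The proteasome is the barrelled protease that degrades most ubiquitin-tagged proteins of the cytosol and nucleus. Its core is built from stacked rings of alpha subunits, which gate the entry pore, and beta subunits, of which Psmb5, Psmb6 and Psmb7 carry the active sites. A regulatory particle caps the core: its base unfolds substrates with a ring of ATPases, and its lid removes the ubiquitin chain. Other caps, assembly chaperones and an inhibitor complete the system, and cells exposed to interferon exchange the active beta subunits for Psmb8, Psmb9 and Psmb10. Proteasome genes are expressed in nearly every cell type, and they often change together when the transcription factor Nfe2l1 senses a shortfall in degradation.

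RNA was measured in CD31-sorted cells from the retinas of C57BL/6 mouse pups at postnatal day 7, with 3 Ctrl pups (Pdgf{beta}CreERT2neg Rnf20p/p) and 3 KO pups (Pdgf{beta}CreERT2pos Rnf20p/p), 1 library each. Both genotypes carry the Rnf20p/p alleles, whose p the labels do not explain, and both received 75 µg of Z-4-HO-Tamoxifen daily from day 1 to day 4. The Pdgfb-driven recombinase acts in endothelium, so deletion was limited to the cells it reaches, while the sort also takes other CD31-bearing cells. The level of Rnf20 itself was 47.9, 57.1 and 56.8 CPM in Ctrl against 39.1, 31.0 and 31.7 CPM in KO (log2 fold change −0.67, adjusted p = 0.101 in edgeR). CPM is the count scaled to the size of the library, and values of a gene are given in the order of replicates 1, 2 and 3.

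The libraries held 14581701 to 30692948 counts. All 15 endothelial markers were detected in each of them, and 9 rose in KO and 0 fell, with a summed level of 4041 to 5907 CPM in Ctrl against 11620 to 15880 CPM in KO. The 14 photoreceptor markers were also detected in each, with 0 up and 3 down, at 19642 to 34964 CPM in Ctrl against 5064 to 24488 CPM in KO. Markers of inner retinal neurons summed to 2803 to 3233 CPM in Ctrl against 909 to 1725 CPM in KO (0 of 12 up, 4 down, Gad1 at 0 in at least 1 library). Red blood cell markers summed to 51.0 to 81.6 CPM in Ctrl against 384 to 557 CPM in KO (4 of 5 tested up, 0 down). Markers of Müller glia and astrocytes summed to 1989 to 2803 CPM in Ctrl and to 1815 to 16586 CPM in KO, with KO 2 highest. Of these 8 markers 2 were up and 0 down, and Aqp4 was at 0 in at least 1 library. Their log2 fold changes went both ways, with 4 positive and 4 negative, from −1.90 to 2.38. Photoreceptor RNA exceeded endothelial RNA over these lists in each Ctrl library. In such bulk samples a change in the number of cells of a type and a change in the RNA of each cell cannot be told apart, and the part of these lists in the results was not tested.

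Across the whole group the proteasome genes lay somewhat higher in KO than in Ctrl. Their median log2 fold change was 0.29, against 0.03 for the 16217 genes tested, and 32 of 47 estimates (68.1%) were positive, against 51.0% of all genes. Without KO 3 these medians were 0.21 and 0.07, so that the distance between them fell from 0.26 to 0.14. Calls are those of edgeR (quasi-likelihood test, p adjusted after Benjamini and Hochberg over all tested genes, threshold 0.05). Of the members 2 were called higher, Psmb4 and Psme1, and 0 lower, where 10.3% of all genes were called, 5.85% higher and 4.44% lower. Unadjusted p-values under 0.05 went to 14 higher and 1 lower, where 30.5% of all genes had one. DESeq2 called 8 higher and 1 lower, where it called 12.4% and 9.53% of all genes, and limma-voom called 2 and 1, where it called 6.09% and 5.69%. A share of called members at or near that of all genes is not a result about the proteasome. In the authors' deposited table, 12 of the 47 entries were past 0.05 and higher and 1 was lower, beside 13.6% and 8.20% of all genes with 1 entry each.

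The sum over the members separated the groups. The summed level of the 47 genes was 7585, 6512 and 6901 CPM in Ctrl against 8563, 8358 and 8978 CPM in KO. Each KO library was above each Ctrl library, by 1.23-fold between the means. Levels of the 2 groups did not overlap for 18 members higher in KO (38.3% of them, against 19.0% of all genes) and for 3 lower in KO, Psmd5, Psme3 and Psme3ip1 (18.9% of all genes). In either direction, 37.9% of all genes had separate groups. The count of called members depended on the setting. Higher and lower calls in edgeR numbered 2 and 0 with DESeq2 size factors (6.20% and 4.29% of all genes), 2 and 0 with upper-quartile factors (6.80% and 3.62%) and 2 and 0 with the entry of highest count for each symbol (5.84% and 4.45%). Library size alone gave 1 and 1 (4.21% and 5.16%), no filter 1 and 0 (4.31% and 3.30%), and leaving out KO 3 gave 1 and 0 (3.02% and 2.22%). GC offsets and the fit without KO 1, which gave more calls, are described with the library patterns.

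**Figure D1:**
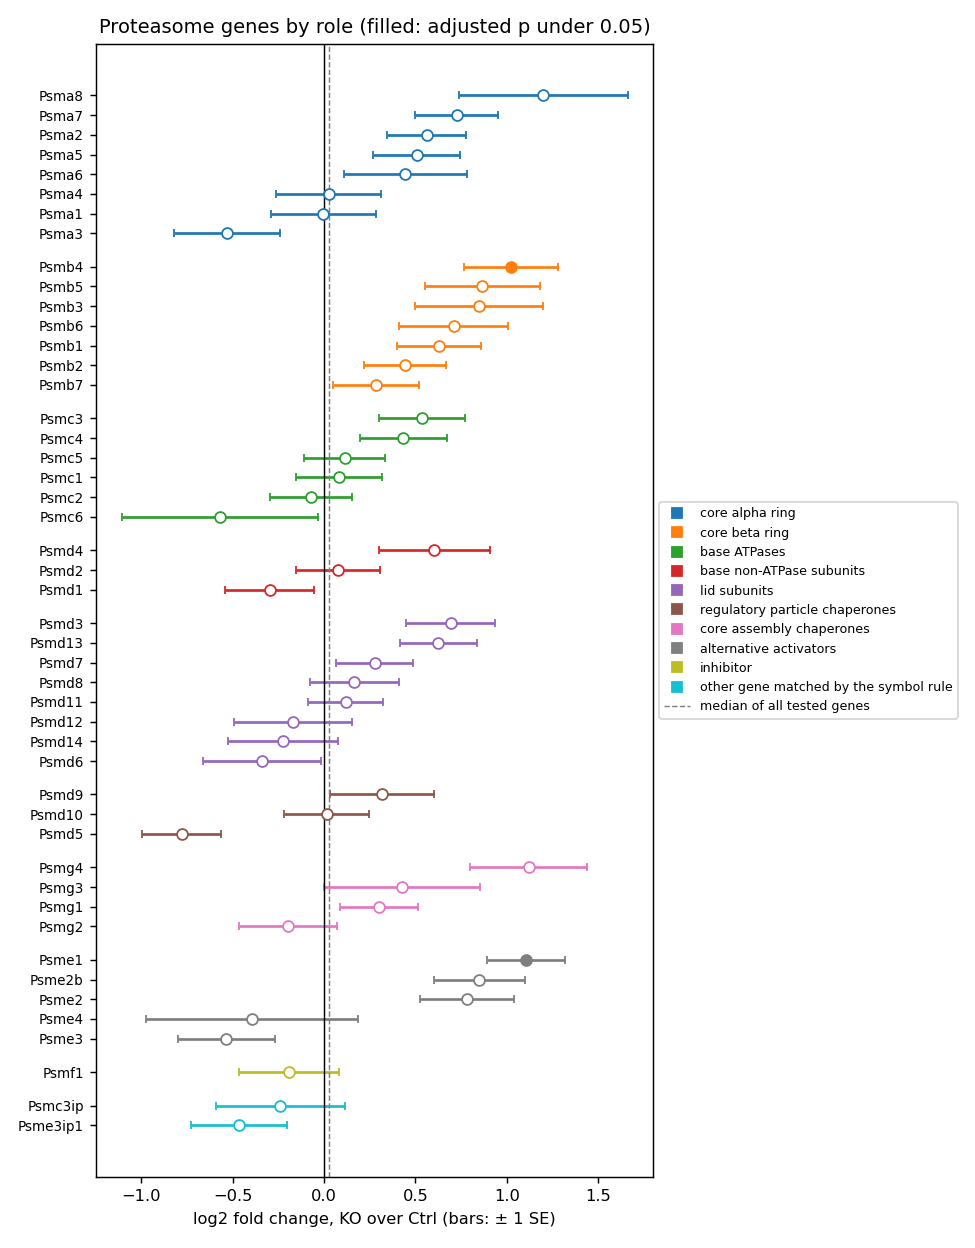
Log2 fold change of KO over Ctrl for each of the 47 genes, ordered by role, with bars of 1 SE and filled points for an adjusted p under 0.05 in edgeR. The 7 beta genes all have positive estimates, from 0.29 to 1.02, while the ATPases and lid subunits lie on both sides of 0; only Psmb4 and Psme1 are filled.

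In the beta ring, all 7 genes had positive estimates, with a median log2 fold change of 0.71, and edgeR called 1 of them higher and 0 lower (5 with an unadjusted p under 0.05, 2 higher by DESeq2). With offsets for transcript GC content the median was 0.43, with 2 called higher and 0 lower. Their summed level was 1613, 1211 and 1276 CPM in Ctrl against 1850, 2165 and 2481 CPM in KO, a 1.58-fold difference between the means, with no overlap. The sums of the alpha genes (1028 to 1066 against 1202 to 1620 CPM), the base ATPases (1371 to 1638 against 1703 to 1762 CPM) and the lid genes (1334 to 1429 against 1469 to 1695 CPM) also did not overlap, with ratios of the means of 1.32, 1.152 and 1.13. The sums of the other roles overlapped. Other base subunits were at 704 to 802 against 746 to 923 CPM, and activators at 234 to 261 against 226 to 333 CPM. Chaperones of the regulatory particle were at 263 to 322 against 227 to 284 CPM, and those of the core at 152 to 189 against 173 to 267 CPM.

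Psmb4, a beta subunit without an active site of its own (NM_008945, chromosome 3, 94884324 to 94886958, minus strand, GRCm38.p6), rose about 2.03-fold. Its level was 251, 209 and 197 CPM in Ctrl against 343, 462 and 532 CPM in KO. The KO libraries were all above the Ctrl libraries, and KO 1 was the lowest of them. The log2 fold change was 1.02 ± 0.259 (SE), and it was called (edgeR adjusted p = 0.0453; range 0.00375 to 0.193 over 16 alternatives). Over those alternatives the log2 fold change lay between 0.86 and 1.25. Among the scalings, filters and libraries left out, the call was lost without Ctrl 1 (1.13), Ctrl 2 (0.99), Ctrl 3 (0.95), KO 2 (1.02) or KO 3 (0.93), with library size alone (0.90) or with no filter (1.02). In the fits without Ctrl 1, Ctrl 2, Ctrl 3 or KO 2, 0 of all genes passed edgeR's adjusted threshold. An unadjusted p below 0.05 went to 12, 4, 5 and 11 of the 47 members there. Of all genes, 4005 of 16533, 3434 of 16722, 3479 of 16710 and 3576 of 16554 had one.

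The genes of the active sites did not pass the test. Psmb5, the chymotrypsin-like subunit, was at 81.5, 58.4 and 54.9 CPM in Ctrl against 76.2, 129 and 150 CPM in KO. KO 1 fell among the Ctrl libraries, and the log2 fold change was 0.87 ± 0.316 (SE). Psmb6, the caspase-like subunit, was at 457, 290 and 308 CPM in Ctrl against 413, 640 and 671 CPM in KO (0.71 ± 0.299). There KO 1 lay below Ctrl 1. Psmb7, the trypsin-like subunit, was at 158, 143 and 158 CPM in Ctrl against 219, 150 and 190 CPM in KO (0.29 ± 0.235), with KO 2 among the Ctrl libraries. EdgeR gave the 3 genes adjusted p = 0.112, 0.155 and 0.443. GENCODE lists processed pseudogenes of all 3, so their counts may share reads with these copies.

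Of the other beta genes, Psmb1 (log2 fold change 0.63) and Psmb2 (0.44) had KO libraries that were all above the Ctrl libraries. Psmb3 (0.85) overlapped, since KO 1, at 46.6 CPM, lay below Ctrl 1, at 55.6 CPM. None of these passed edgeR's test (adjusted p = 0.113, 0.220 and 0.149).

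**Figure D2:**
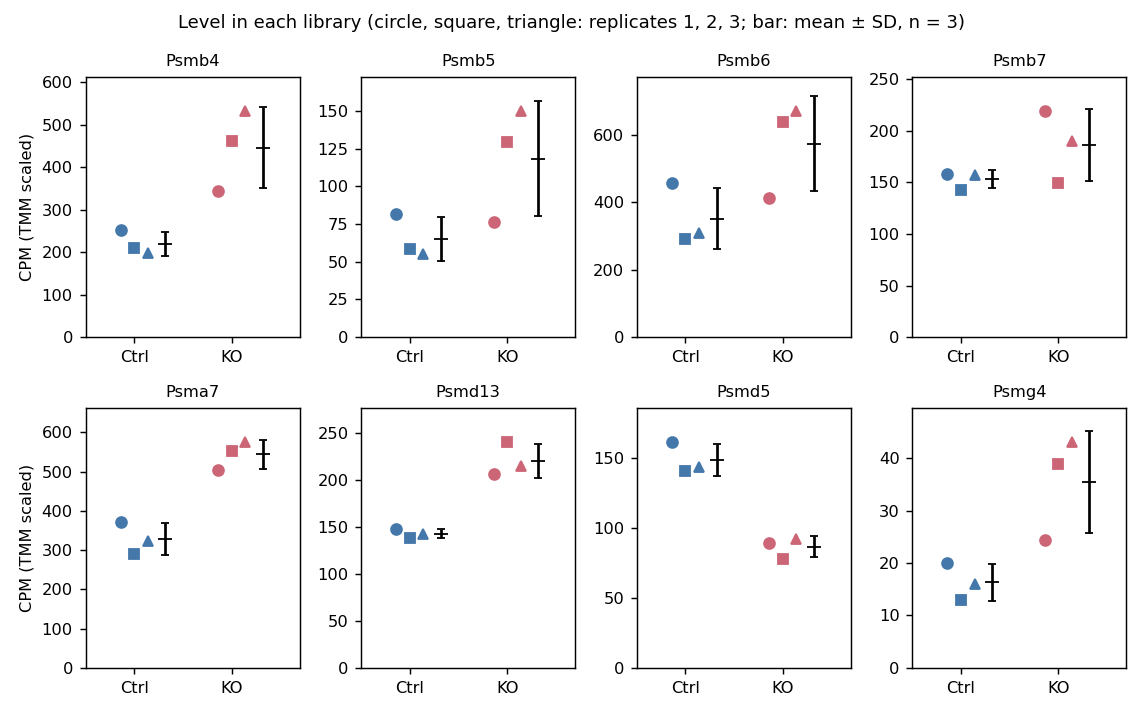
Level in CPM, from 0 upward, in each of the 3 Ctrl (blue) and 3 KO (red) libraries for 8 proteasome genes; circles, squares and triangles are replicates 1, 2 and 3, and black bars give mean ± SD. Psmb4, Psma7, Psmd13 and Psmg4 have all KO libraries above all Ctrl libraries and Psmd5 has them below, while Psmb5, Psmb6 and Psmb7 overlap.

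The sequences before the transcription start are shown for the called members and for 2 active-site genes, since the beta genes had estimates of the same sign. RefSeq (GRCm38.p6) gave 43 promoter windows for 39 of the 47 members, and the 250 bases before each start were searched on both strands. Capitals mark the letters TGANNNNGC. They are a loose form of the antioxidant response element, through which Nfe2l1 and Nfe2l2 are known to act, and also match sequences outside it.
Psmb4, chr3:94886959-94887208, minus strand: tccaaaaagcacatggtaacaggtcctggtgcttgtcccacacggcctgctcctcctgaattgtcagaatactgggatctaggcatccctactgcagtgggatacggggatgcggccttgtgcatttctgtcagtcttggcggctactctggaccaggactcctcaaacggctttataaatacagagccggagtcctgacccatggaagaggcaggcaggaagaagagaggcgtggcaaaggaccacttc
Psmb5, chr14:54617996-54618245, minus strand: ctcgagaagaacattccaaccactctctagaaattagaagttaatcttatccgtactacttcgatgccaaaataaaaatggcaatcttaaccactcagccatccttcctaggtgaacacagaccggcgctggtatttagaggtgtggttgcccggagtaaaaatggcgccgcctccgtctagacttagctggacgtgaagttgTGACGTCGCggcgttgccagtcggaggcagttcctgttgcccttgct
Psmb6, chr11:70525107-70525356, plus strand: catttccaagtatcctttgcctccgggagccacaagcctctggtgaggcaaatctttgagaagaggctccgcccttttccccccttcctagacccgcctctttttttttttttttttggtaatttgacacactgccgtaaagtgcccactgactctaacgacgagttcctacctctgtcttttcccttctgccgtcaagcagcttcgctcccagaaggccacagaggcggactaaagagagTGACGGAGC
Psme1, chr14:55578244-55578493, plus strand: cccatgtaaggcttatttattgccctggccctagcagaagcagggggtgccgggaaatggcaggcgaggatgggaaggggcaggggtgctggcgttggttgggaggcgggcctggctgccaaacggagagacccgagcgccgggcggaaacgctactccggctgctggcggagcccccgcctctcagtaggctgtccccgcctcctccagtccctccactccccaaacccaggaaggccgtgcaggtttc
Psmb5 holds a match 47 to 39 bases before its start and Psmb6 one 9 to 1 bases before it, and the windows of Psmb4 and Psme1 hold no match to these letters. The Psmb6 window ends at 70525356, past the start of the annotated gene span at 70525324. Its match therefore lies inside that span. Over all member windows 39.5% held these loose letters, against 35.2% of the 32851 windows in the table, which is near the background. The frequency of the stricter element was not counted. The ETS-type letters ACTTCCGG were in 6 of 43 member windows and in 2.88% of all windows. They stood before Psmc1, Psmc2, Psmd12, Psmd6 and Psme4. The reported fit called none of these, but it called only 2 of the 47 members. Without KO 1, Psmd6 and Psme4 were called lower. CCAAT was in 32.6% of member windows against 33.8% of all windows. The interferon-response type (GAAA, any 2 bases, GAAA) was in 6.98% against 2.98%. That is 3 of 43 member windows, before Psmb3, Psmd4 and Psmd9. The reported fit called none of these, and without KO 1 Psmb3 and Psmd4 were called higher. The type TTCNNNGAA, bound by STAT factors, was in 2.33% (1 of 43) against 7.02%. A match describes the letters only.

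Of the 8 alpha genes, 6 had positive estimates (median log2 fold change 0.48, and 0.60 with GC offsets, where 3 were called higher and 0 lower), and edgeR called 0 in either direction (3 with an unadjusted p under 0.05, 1 higher by DESeq2, 0 by limma-voom). Psma7 was at 372, 291 and 323 CPM in Ctrl against 504, 553 and 576 CPM in KO. These groups did not overlap, and the log2 fold change of 0.73 ± 0.226 (SE) did not pass edgeR's test (adjusted p = 0.0746). Psma2 (0.56) and Psma5 (0.51) likewise had all KO libraries above all Ctrl libraries, without passing (adjusted p = 0.125 and 0.190).

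Psma8, the alpha subunit of the testis form of the core, was scarce. It was at 1.57, 2.35 and 1.69 CPM in Ctrl against 5.88, 2.91 and 4.15 CPM in KO, from 26 counts in the poorest library. Its log2 fold change of 1.20 ± 0.463 (SE) did not pass edgeR's test (adjusted p = 0.126). Psma6 was at 164, 188 and 201 CPM in Ctrl against 385, 179 and 189 CPM in KO. Only KO 1 stood out there, and the log2 fold change was 0.45 (adjusted p = 0.403 in edgeR). Psma3 went the other way, at 68.3, 84.5 and 87.1 CPM in Ctrl against 71.7, 37.2 and 57.0 CPM in KO (−0.53, adjusted p = 0.251 in edgeR). Its counts overlap those of 3110056K07Rik. Psma1 and Psma4 ranged from 175 to 318 CPM and from 49.0 to 90.0 CPM, each with its highest value in KO 1 and its lowest in KO 2.

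The 6 ATPases of the base, which pull substrates into the core, had a median log2 fold change of 0.10, and edgeR called 0 of them (0 with an unadjusted p under 0.05, 0 with DESeq2, 0 with limma-voom). Psmc3 was at 368, 288 and 305 CPM in Ctrl against 396, 513 and 485 CPM in KO. These groups did not overlap, and the log2 fold change was 0.54 ± 0.236 (SE, adjusted p = 0.168 in edgeR). Psmc4 had KO libraries above the Ctrl libraries as well (0.43, adjusted p = 0.256).

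Psmc6, another ATPase, varied widely among the KO libraries. It was at 109, 171 and 179 CPM in Ctrl against 203, 51.6 and 55.2 CPM in KO. KO 1 was the highest of the 6 libraries and KO 2 and KO 3 the lowest. Its log2 fold change was −0.57 ± 0.537 (SE, adjusted p = 0.506 in edgeR).

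The other base subunits were Psmd1, Psmd2 and Psmd4, a receptor for ubiquitin chains. Psmd4 was at 333, 236 and 252 CPM in Ctrl against 272, 464 and 513 CPM in KO, so that KO 1 lay among the Ctrl libraries. Its log2 fold change of 0.60 did not pass edgeR's test (adjusted p = 0.218), and 0 of these 3 subunits did (0 with an unadjusted p under 0.05, 0 with DESeq2, 0 with limma-voom).

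Of the 8 lid genes, 5 had positive estimates (median log2 fold change 0.14), and edgeR called 0 (2 with an unadjusted p under 0.05, 1 higher by DESeq2, 0 by limma-voom). Psmd13 was at 148, 139 and 142 CPM in Ctrl against 206, 240 and 214 CPM in KO. Both groups were tight and did not overlap, and the log2 fold change was 0.62 ± 0.211 (SE, adjusted p = 0.0911 in edgeR). Psmd3 was at 155, 151 and 158 CPM in Ctrl against 189, 282 and 279 CPM in KO (0.69, adjusted p = 0.101). With GC offsets its log2 fold change was 0.16. Psmd14, the deubiquitinase of the lid, ranged from 114 to 150 CPM in Ctrl and from 91.4 to 166 CPM in KO, with KO 1 highest. Psmd6 (−0.34) and Psmd12 had the same order, with KO 1 above each Ctrl library and KO 2 and KO 3 below.

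Chaperones of the regulatory particle included the member with the lowest estimate. Psmd5, which holds ATPases of the base during assembly, was at 161, 141 and 143 CPM in Ctrl against 89.3, 78.1 and 92.2 CPM in KO. Each KO library was lower than each Ctrl library, by 1.72-fold between the means. The log2 fold change of −0.78 ± 0.216 (SE) missed the threshold (edgeR adjusted p = 0.0568; range 0.0136 to 0.431 over 16 alternatives), while DESeq2, limma-voom, edgeR with library size alone and edgeR without KO 1 called it lower. It was −0.45 with offsets for transcript GC content, where it was not called. The other chaperones of this particle, Psmd9 and Psmd10 (gankyrin), overlapped between the groups, at 83.7 to 156 CPM and at 35.9 to 45.2 CPM.

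Chaperones of the core act in pairs on the alpha ring. Psmg4 was at 19.9, 13.0 and 16.03 CPM in Ctrl against 24.4, 38.8 and 43.1 CPM in KO. All KO libraries were above all Ctrl libraries, 2.17-fold between the means, but the log2 fold change of 1.12 ± 0.321 (SE) did not pass edgeR's test (adjusted p = 0.0613). Psmg1 had separate groups too, at 52.8 to 58.6 and 64.1 to 75.1 CPM. Psmg2 and Psmg3 overlapped. Of the 4, edgeR called 0 (1 with an unadjusted p under 0.05, 1 higher by DESeq2, 0 by limma-voom).

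Alternative activators had 3 positive and 2 negative estimates, and edgeR called 1 of the 5 higher and 0 lower. Psme1 and Psme2 form the interferon-inducible cap that opens the core without ATP, and Psme2b is a close copy of Psme2, so reads of Psme2 and Psme2b may be exchanged. Psme1 (NM_011189, chromosome 14, 55578494 to 55581527, plus strand, GRCm38.p6) rose 2.15-fold, from 44.1, 37.5 and 40.3 CPM in Ctrl to 88.9, 87.8 and 85.5 CPM in KO. The KO libraries lay within a few CPM of each other, including KO 1. The log2 fold change was 1.10 ± 0.212 (SE), and it was called (edgeR adjusted p = 0.0240; range 0.000110 to 0.144 over 16 alternatives). The call was lost without Ctrl 1 (1.17), Ctrl 2 (1.05), Ctrl 3 (1.10) or KO 2 (1.12), and kept without KO 1 (1.16) or KO 3 (1.17). Psme1 overlaps the gene Emc9, which was at 5.98 to 7.96 CPM in Ctrl against 7.06 to 17.2 CPM in KO.

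Psme2 was at 16.7, 13.6 and 13.8 CPM in Ctrl against 27.0, 25.5 and 23.4 CPM in KO. Psme2b was at 27.2, 20.2 and 27.2 CPM in Ctrl against 48.4, 44.5 and 41.7 CPM in KO. Neither gene's groups overlapped, but neither log2 fold change (0.78 and 0.85) passed edgeR's test (adjusted p = 0.0868 and 0.0640). Psme3, the nuclear relative of that cap, lay lower in KO, at 105, 89.5 and 61.5 CPM against 124, 112 and 135 CPM in Ctrl (−0.53, adjusted p = 0.211 in edgeR). Psme4, a large single-chain cap, was at 27.4, 51.0 and 45.1 CPM in Ctrl against 63.3, 16.8 and 13.8 CPM in KO (−0.40, adjusted p = 0.681 in edgeR). As with Psmc6, KO 1 was the highest library of all and KO 2 and KO 3 the lowest.

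Psmf1, an inhibitor of the core, was at 122, 87.3 and 77.4 CPM in Ctrl against 65.4, 91.4 and 94.1 CPM in KO. The groups overlapped (−0.19, adjusted p = 0.668 in edgeR). Neither gene matched by name only passed edgeR's test: Psmc3ip, which overlaps Mlx, had a log2 fold change of −0.24 (adjusted p = 0.684) and Psme3ip1 of −0.47 (adjusted p = 0.263).

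The place of KO 1 among the KO libraries varied from gene to gene. KO 1 lay above both other KO libraries for 21 members, below both for 16 and between them for 10. This order was not counted over all genes, so these numbers do not set the members apart. Without KO 1, edgeR called 14 members higher and 4 lower, where 15.2% and 14.5% of all genes were called. The 12 added to the higher side were Psma7, Psmb1, Psmb3, Psmb5, Psmb6, Psmc3, Psmd3, Psmd4, Psmd13, Psme2, Psme2b and Psmg4. The 4 lower were Psmc6 (log2 fold change −1.45), Psme4 (−1.36), Psmd5 (−0.74) and Psmd6 (−0.68).

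Deviations between the libraries ran with the base composition of the transcripts. Transcript GC content of the members was 37.0% to 58.3%, with a median of 49.7%. Across the 47 members, the correlation of GC content with a library's deviation from the mean of the 6 libraries (log2 of CPM plus 0.5) was 0.12, −0.70 and −0.64 in Ctrl 1, 2 and 3 (Pearson's r). In KO 1, 2 and 3 it was −0.58, 0.76 and 0.67. KO 1 thus ran with Ctrl 2 and Ctrl 3, and against KO 2 and KO 3. Genes of a library share its depth and preparation, so these are descriptions. Across 16093 tested genes with a GC value the same correlations were 0.01, −0.54, −0.51, −0.27, 0.49 and 0.61, so the relation was not limited to proteasome genes. The part of base composition in the differences between the groups was not tested beyond the fit with GC offsets given here.

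**Figure D3:**
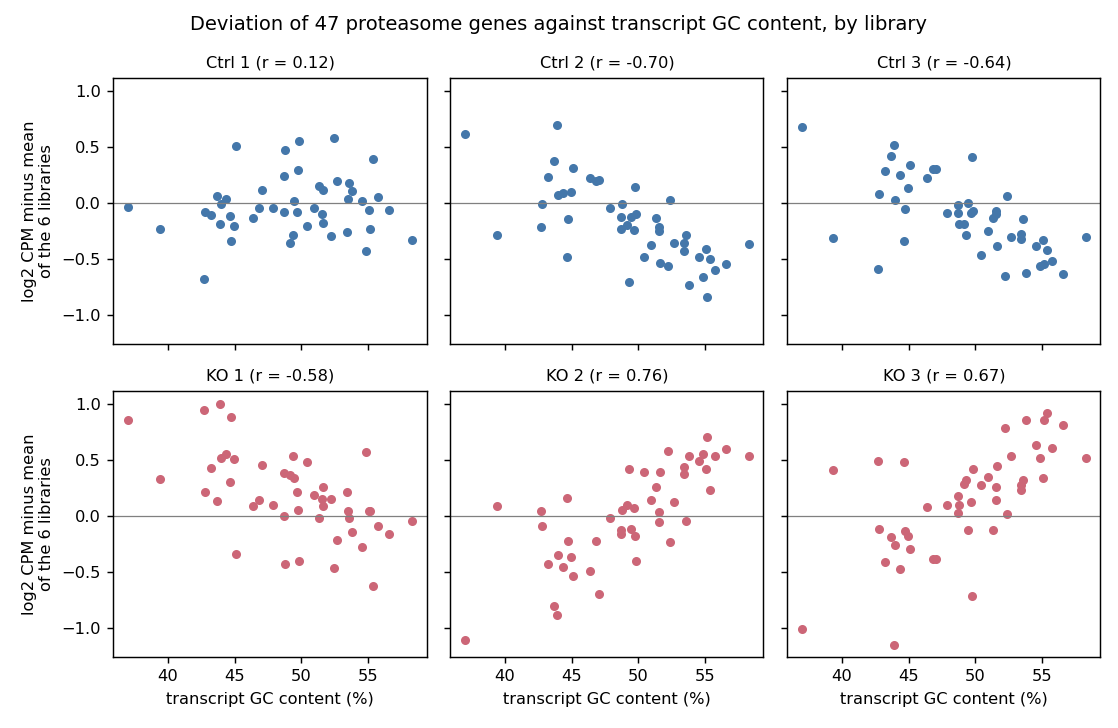
Deviation of each of the 47 genes from its mean over the 6 libraries (log2 of CPM plus 0.5) against transcript GC content in percent, 1 panel per library. Points slope downward in Ctrl 2, Ctrl 3 and KO 1 (r from −0.70 to −0.58), upward in KO 2 and KO 3 (0.76 and 0.67) and hardly in Ctrl 1 (0.12).

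The members at both ends of the GC range show its size. The 10 with the lowest GC content, 37.0% to 44.7%, among them Psmc6, Psme4, Psmd12 and Psma1, had a median log2 fold change of −0.09. The 10 with the highest, 53.6% to 58.3%, among them Psmb5, Psmb6, Psmd3 and Psmg4, had 0.70. The GC offsets were fitted, for each library, to the relation of deviation and GC content over the tested genes of these same data. With them, the correlation of the members' log2 fold changes with GC content went from 0.50 to −0.10. This fall follows from how the offsets were made and is not a separate result. An unadjusted p below 0.05 in edgeR then went to 16 of the 47 members and to 5470 of all 16217 genes. EdgeR called 8 members higher and 0 lower there, where 5.78% and 7.24% of all genes were called. Psmb4 (0.86), Psme1 (0.84), Psmb1 (0.99), Psme2b (0.91) and Psmg4 (0.78) were among them, with the alpha genes Psma2 (1.39), Psma6 (0.72) and Psma8 (1.66). Psmb5 (0.43), Psmb6 (0.34), Psmd4 (0.29) and Psmc3 (0.23) were not, and Psmc6 turned to 0.10. With the offsets the median of the members was 0.23 and that of all genes −0.01. The median GC content of the members, 49.7%, was near that of all tested genes, 50.4%. Offsets by GC content could therefore change this distance only little. With these offsets and without KO 1, 9 members were called higher and 0 lower, where 6.67% and 6.12% of all genes were, and 8 of the 9 were those named here; the other was Psmd10.

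The immunoproteasome genes, which the rule leaves out, were all higher in KO. Psmb9 was at 3.52, 3.01 and 3.13 CPM in Ctrl against 12.3, 21.8 and 14.6 CPM in KO (log2 fold change 2.33 ± 0.357 SE). Psmb8 was at 10.4, 8.67 and 8.02 CPM in Ctrl against 20.3, 72.1 and 33.5 CPM in KO (2.21 ± 0.471). Psmb10 was at 23.1, 20.8 and 23.2 CPM in Ctrl against 53.7, 104 and 83.7 CPM in KO (1.85 ± 0.297). All 3 rose, with each KO library above each Ctrl library and KO 2 the highest, and all were called (edgeR adjusted p = 0.0212, 0.0302 and 0.0212). Without Ctrl 1, Ctrl 2, Ctrl 3 or KO 2 they were not called, at log2 fold changes of 2.08 to 2.397 for Psmb9, 1.5997 to 2.33 for Psmb8 and 1.65 to 1.87 for Psmb10. Psmb8 was also not called without KO 3 (2.43). With GC offsets all 3 were called, at 1.98 for Psmb9, 1.77 for Psmb8 and 1.399 for Psmb10.

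Set against their constitutive counterparts per kilobase of transcript, these genes stayed below them in each library. The level of Psmb8 was 7.06%, 8.19% and 8.06% of that of Psmb5 in Ctrl against 14.7%, 30.8% and 12.3% in KO. Psmb10 was at 12.9%, 12.9% and 13.0% of Psmb7 in Ctrl and at 21.7%, 61.8% and 38.9% in KO. Psmb9 stayed between 0.455% and 2.01% of Psmb6. Each KO library was above each Ctrl library in all 3 ratios.

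Microglia, which use immunoproteasomes, were uneven across the libraries. Their 12 markers, none at 0 in any library, summed to 1420, 1810 and 279 CPM in Ctrl against 257, 14147 and 2748 CPM in KO, and edgeR called 0 of the 12 (0 with an unadjusted p under 0.05, 0 with DESeq2, 0 with limma-voom). All 12 had positive estimates, with a median log2 fold change of 2.19, and 7 were called higher without KO 1. KO 2, highest in Psmb8, Psmb9 and Psmb10, was also highest in microglial markers. KO 1 had a microglial sum below that of each Ctrl library, and levels of Psmb8, Psmb9, Psmb10 and Psme1 above those of each Ctrl library. The part of microglia in these results was not tested.

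**Figure D4:**
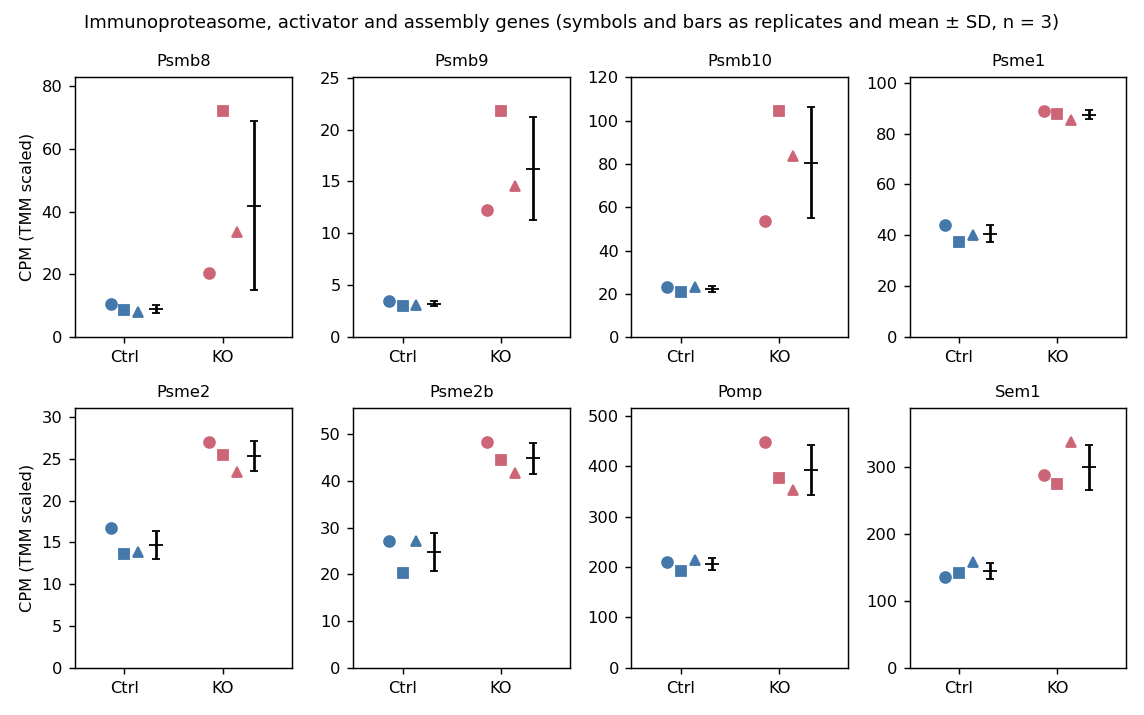
Level in CPM, from 0 upward, in each library for immunoproteasome genes (Psmb8, Psmb9, Psmb10), activator genes (Psme1, Psme2, Psme2b) and the assembly and subunit genes Pomp and Sem1, with symbols for replicates 1, 2 and 3 and bars for mean ± SD. In all 8 panels each KO library lies above each Ctrl library; the KO libraries spread widely for Psmb8 (20.3 to 72.1 CPM) and narrowly for Psme1 (85.5 to 88.9 CPM).

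Other genes of the pathway were tested in the same fit. Of 6 measured genes for remaining particle subunits and assembly, edgeR called 2 higher and 0 lower. Pomp, the maturation factor that places the beta subunits, was at 211, 192 and 214 CPM in Ctrl against 448, 377 and 353 CPM in KO (log2 fold change 0.93 ± 0.224 SE, adjusted p = 0.0397 in edgeR). Sem1, the smallest lid subunit, was at 135, 142 and 158 CPM in Ctrl against 287, 274 and 337 CPM in KO (1.05 ± 0.223, adjusted p = 0.0302). Neither gene's groups overlapped. Neither call held without Ctrl 1, Ctrl 2, Ctrl 3, KO 2 or KO 3, where the log2 fold change was 0.88 to 1.05 for Pomp and 0.99 to 1.13 for Sem1, and that of Pomp was also lost with library size alone (0.82). With GC offsets that of Sem1 was 2.103. Adrm1, a ubiquitin receptor of the base, had 0.92 (adjusted p = 0.0864), and 0.25 with GC offsets. Ecpas, which binds the particle, lay lower in KO with no overlap (−0.82, adjusted p = 0.142).

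EdgeR called none of the 2 deubiquitinases that bind the particle or of the 8 genes for shuttles and the Vcp unfoldase (0 with an unadjusted p under 0.05, 0 with DESeq2, 0 with limma-voom in both lists). Without KO 1 both deubiquitinases were called lower, Usp14 at −1.50 and Uchl5 at −1.02.

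Of 4 genes for transcriptional control, edgeR called 0 (1 with an unadjusted p under 0.05, 0 by DESeq2 and by limma-voom). Nfe2l1, which drives proteasome genes, was at 58.2, 62.4 and 57.5 CPM in Ctrl against 95.3, 95.5 and 65.8 CPM in KO. The groups did not overlap, and the log2 fold change of 0.53 did not pass edgeR's test (adjusted p = 0.179). It was 0.29 with GC offsets, and 0.05008 with these and without KO 1. Nfe2l2 overlapped, at 62.0 to 98.7 CPM in Ctrl against 91.5 to 156 CPM in KO (0.61, adjusted p = 0.197). The other genes of the list had negative estimates. Ngly1, which removes glycans from Nfe2l1, was the gene with an unadjusted p under 0.05 (−0.89, adjusted p = 0.129 in edgeR) and was called lower without KO 1 (−1.235). Ddi2, the protease that cleaves Nfe2l1, was lower with no overlap (−0.32, adjusted p = 0.378).

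Levels of the members relative to each other were compared per kilobase of transcript. In Ctrl the active-site gene Psmb6 stood first at 441 ± 114 CPM per kilobase (SD, n = 3), followed by Psmb2 at 398 ± 46.8 and Psma7 at 360 ± 44.4. Within each Ctrl library, Psmb6 and Psmb2 were above Psma7. Psmb6 was above Psmb2 in Ctrl 1 and Ctrl 2 and below it in Ctrl 3. Differences between these genes were not tested. Psmb4 was at 185 ± 24.2, Psmb7 at 132 ± 7.46, Psmb5 at 72.3 ± 16.1 and Psmb3 at 52.1 ± 17.8. Subunits that occur in equal number in the core thus had unequal levels here, as Psma5 did at 20.5 ± 1.39. Of the activators, Psme1 was at 36.5 ± 3.00 and Psme4 at 6.35 ± 1.89, and Psma8 was last at 1.11 ± 0.248. The deposited lengths are genomic spans, so these levels rest on reference transcript lengths and are approximate.

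**Figure D5:**
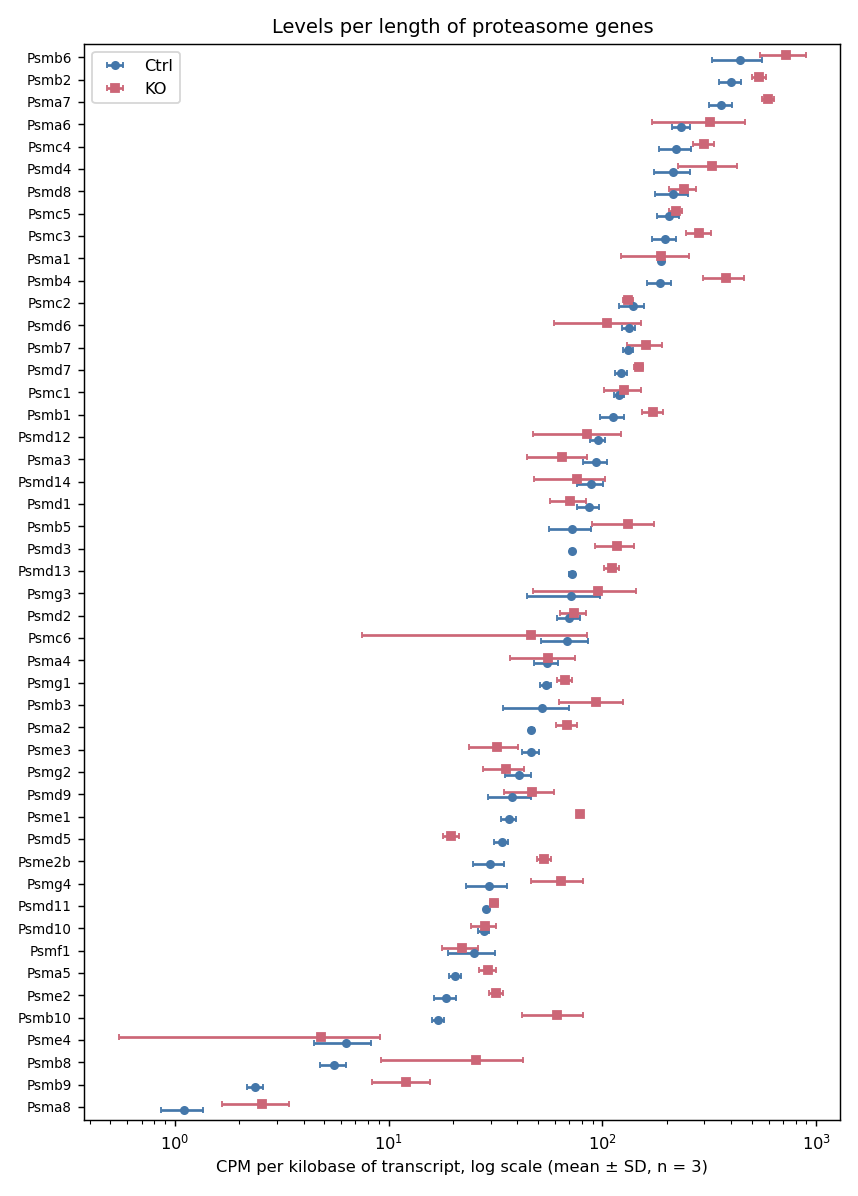
CPM per kilobase of transcript on a log axis for 45 proteasome genes and the 3 immunoproteasome genes, in order of the Ctrl mean, with Ctrl as blue circles and KO as red squares (mean ± SD, n = 3). Psmb6, Psmb2 and Psma7 lead the order and Psma8 ends it, at 1.11 in Ctrl; Psmb8, Psmb9 and Psmb10 are displaced to the right in KO.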

How the data were processed

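Per the labels' protocols, polyadenylated RNA was amplified as full-length cDNA, fragmented by tagmentation and sequenced (BGISEQ-500, 50-base single reads), without strand information. Upstream tools, per the submitters' processing notes, are STAR, Trimmomatic 0.36, deepTools, edgeR and DESeq2, with mm10 as build; counter, annotation: not given in the sources used here. Deposited by the authors was 1 table of 34035 transcript entries. Per the file headers it holds raw counts, normalized counts (a signal: the authors' count divided by 1 size factor per library), RPKM, and the authors' DESeq2 log2 fold change with its standard error, Wald statistic (a score), p-value and adjusted p-value. The column CTR35.x was taken as Ctrl 3, since its name starts as that replicate's and the other Ctrl columns are numbered 1 and 2; its ratio to the deposited normalized counts of Ctrl 3 is constant. 0 columns of per-sample values were left unused for lack of a sample.

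For each symbol the entry with the longest span was used, with ties going to the higher count sum; the members have 60 entries under 47 symbols. KO was compared with Ctrl by edgeR 4.0.16 (quasi-likelihood test, TMM, filterByExpr, R 4.3.3) over 16217 genes with Benjamini-Hochberg adjustment at 0.05, two-sided. The SE is the absolute log2 fold change divided by the square root of F. CPM are TMM scaled and given as mean ± SD over 3 libraries. The fit was tested on simulated data. Alternatives were other scalings, DESeq2 1.42.0, limma-voom (limma 3.58.1), no filter, the entry with most counts, the replicate number as a block, GC offsets (GENCODE M21 transcripts, 99.1% of symbols matched) and each library left out. The fit with GC offsets and without KO 1 was added after the data were seen. Summaries used Python 3.11.15 with numpy 2.4.6 and pandas 2.3.3, and plots used matplotlib 3.10.9. Coordinates and promoters are RefSeq's, GRCm38.p6, the assembly of mm10.

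The members and lists were chosen with earlier results of these data known. The rule for named genes takes Psmb5, Psmb6 and Psmb7, each called member, the member of each role with the smallest p, Psma8, Psmc3ip, Psmf1, Psme4, and of the pathway lists the immunoproteasome genes, Pomp, Adrm1, Nfe2l1, Nfe2l2 and each called gene; any other member could be named with its level. A result for the ubiquitin genes is not reported here. Each library is from its own pup, per the source names. The smallest two-sided p of an exact permutation test over 3 and 3 samples is 0.1. Psmb11 and Paaf1 were listed but not analysed here. Counts of 11 members that overlap another gene of the table are uncertain.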

Additional observations from a re-analysis of the deposited data

How the results depend on the processing

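Of 640 alternative log2 fold changes for 40 named genes, 546 kept both direction and side of the threshold, 48 lost a call, 40 gained one and 6 reversed. The reversals were Psmf1 without Ctrl 1 (0.020), without KO 1 (0.024) and with GC offsets and without KO 1 (0.16), Psmc3ip without Ctrl 1 (0.011), and Psmc6 with GC offsets (0.10) and with these and without KO 1 (0.060). With a library left out, Psmf1 lay between −0.33 and 0.024 and Psmc3ip between −0.53 and 0.011. None of these reversed values passed edgeR's test, and the 3 genes were not called in the reported fit, and the cause was not tested.

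Members called higher numbered 2 in the reported fit, 1 with library size alone, 1 with no filter, 8 with DESeq2, 8 with GC offsets, 9 with GC offsets and without KO 1, and 0 to 14 with a library left out. Members called lower numbered 0 in the reported fit, 1 with library size alone, 1 with DESeq2, 1 with limma-voom, and 0 to 4 with a library left out. Of all genes, 948 were higher and 720 lower; DESeq2 gave 2019 and 1546, GC offsets 937 and 1174, and leaving out a library 0 to 2520 and 0 to 2407. Fits without a library have fewer samples to measure spread. The median of the members, 0.29, was 0.36 with upper-quartile factors and 0.17 with library size alone, and 0.21 to 0.37 with a library left out. Library size alone moved the median of all genes from 0.03 to −0.09, and the members stayed 0.27 above it; the distance was 0.26 in the reported fit and 0.14 without KO 3.

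With the replicate number as a block, edgeR called 0 members and, of all genes, 1 higher and 0 lower. An unadjusted p below 0.05 went to 5 of the 47 members and to 3407 of all 16217 genes. The block ended the calls of Psmb4 (1.01), Psme1 (1.11), Psmb8 (2.03), Psmb9 (2.29), Psmb10 (1.80), Pomp (0.93) and Sem1 (1.04). Deviations of same-numbered libraries correlated at −0.36, 0.07 and −0.25, and no library correlated best with its own number. These deviations also carry the differences between libraries that ran with base composition. They therefore cannot show whether the numbers pair the samples. The scarcest member, Psma8, had 26 counts in its poorest library, which limits its precision.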
